A study of Mus musculus with 32 samples.

Results

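The 10 genes described here serve as markers of blood vessels and connective tissue, and were followed through mouse hippocampal cultures treated for 30 minutes. They were chosen by symbol from the deposited total RNA table, and all 10 were found among its 51267 features. All 10 also passed the filter on low counts, which kept 17173 features. The set holds 4 endothelial genes (Pecam1, Flt1, Kdr and Slco1a4), 3 genes of mural cells, the pericytes and smooth muscle cells that wrap vessels (Pdgfrb, Rgs5 and Vtn), and 3 fibroblast genes (Igf2, Col1a1 and Col1a2).

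The cultures were primary cells from the hippocampus of P0 pups, labelled as neurons and kept to 16 days in vitro (DIV). The vehicle was DMSO, and the agents were DHPG at 30 µM, which stimulates group I metabotropic glutamate receptors, and forskolin (FSK) at 50 µM, an activator of the enzyme that makes cAMP. All groups share this origin, age and exposure time, and no strain or genotype is given in the sources used here. Each assay, total RNA and miRNA, held 4 DMSO, 6 DHPG and 6 FSK libraries, and the labels do not say whether these came from separate cultures or animals, so the spread between them may be technical.

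In the brain, endothelial cells form the wall of capillaries and carry the transporters of the blood-brain barrier, and pericytes sit on their outer face. VEGF made by other cells acts on endothelial receptors, and PDGF-B made by endothelium acts on PDGF receptor beta of pericytes. Fibroblasts of the meninges and of larger vessels lay down fibrillar collagen and secrete growth factors such as IGF-II. A dissociated culture has no blood flow and can keep some of these cells beside neurons and glia.

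Depth divided the total RNA libraries into 2 sets, and no label names such a split. The deep set of 7 libraries comprised FSK 4 to 6, DHPG 6 and DMSO 2 to 4, with 38409918 to 59958600 counts, 10.8 to 27.7% of them mitochondrial rRNA. The shallow set of 9 comprised FSK 1 to 3, DHPG 1 to 5 and DMSO 1, with 20677117 to 24892959 counts, 1.47 to 2.92% of them mitochondrial rRNA. The miRNA libraries of the same names overlapped in depth, with 2034465 to 4909062 counts beside the deep set and 1748819 to 6756996 beside the shallow one. Set and treatment are partly confounded, most of all for DHPG, and what sets them apart was not tested. In bulk RNA, fewer cells of a type and less RNA per cell cannot be told apart.

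The endothelial label was only partly borne out by further markers. Of 22 other endothelial genes, 9 passed the filter on low counts. Cldn5, the main tight-junction claudin of brain endothelium, had 1 count over all 16 libraries together. Sox17, an arterial transcription factor, had 0, Sox18 had 11, Erg, a transcription factor of all endothelium, had 16, and Tek, the angiopoietin receptor, had 44. Most of the endothelial counts came from genes such as Mfsd2a, a lipid transporter, with 15586, Egfl7 with 9162 and Podxl with 9095. Between these extremes, Cdh5 with 1468, Vwf with 552, Nos3 with 527 and Eng with 382 also passed. Of 17 other mural genes 11 passed, among them Cspg4 with 41072 counts, Notch3 with 8357 and Tagln with 6121. The pericyte genes Higd1b and Kcnj8 had 0 and 7 counts. All 22 other fibroblast and meningeal genes passed, among them Col3a1 with 26257 counts and the decorin gene Dcn with 13065. The 6 globin and red-cell genes together stayed at or below 0.816 CPM (counts scaled to library size and composition) in every library. The endothelial and mural genes are therefore called by their symbols below, and no cell type is inferred from them.

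**Figure D1:**
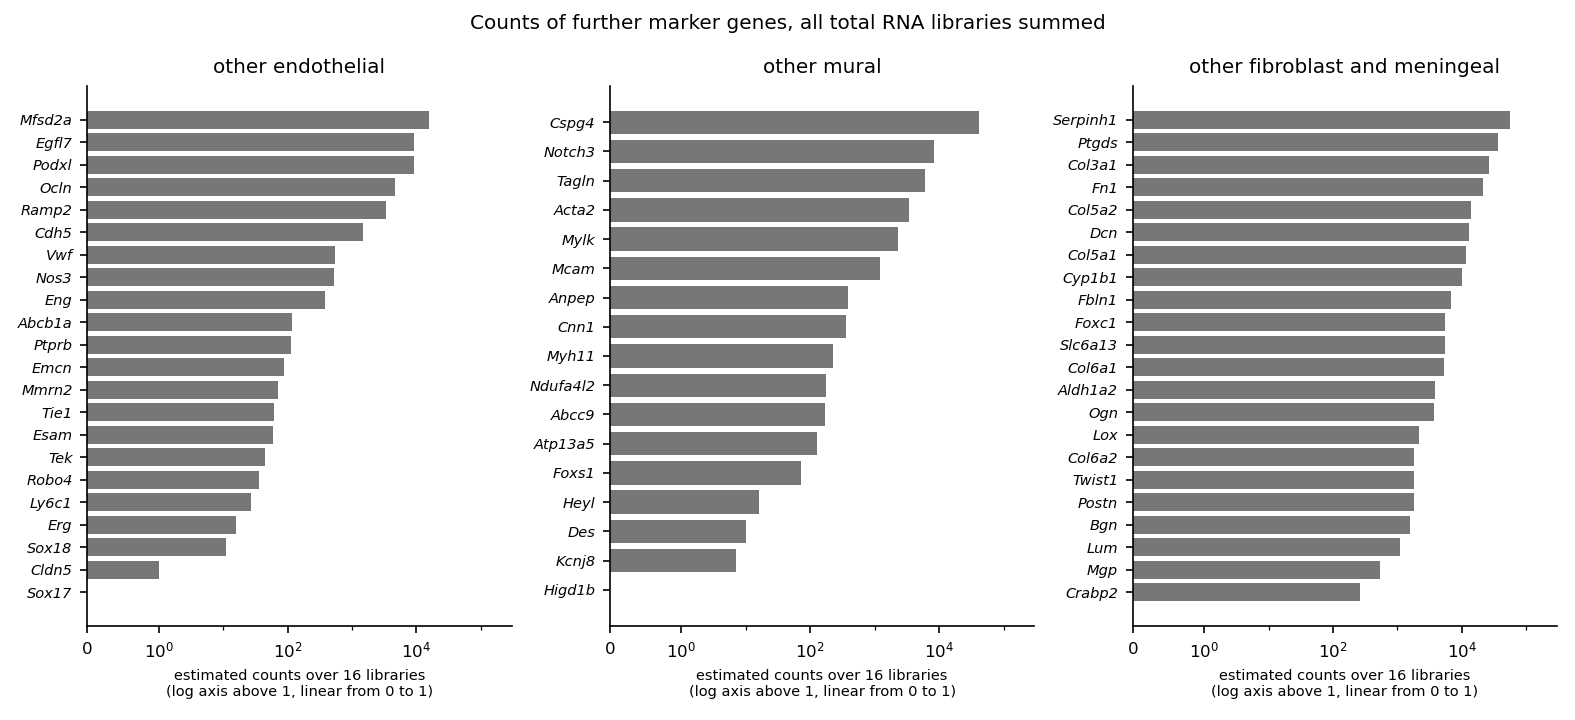
Estimated counts of 22 endothelial, 17 mural and 22 fibroblast and meningeal genes other than the members, summed over the 16 total RNA libraries (horizontal axis, logarithmic above 1 count and linear from 0 to 1). Sox17 and Higd1b stand at 0 and Cldn5 at 1, while every fibroblast and meningeal gene has at least 262 counts.

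The 10 genes varied widely between libraries, and 7 of them differed between the library sets, as did 34.5% of all features. Slco1a4 spanned 87.9-fold from its lowest library to its highest, Igf2 45.9-fold, Vtn 33.2-fold, Col1a1 31.4-fold and Col1a2 25.2-fold, whereas Pdgfrb spanned 2.21-fold and Pecam1 3.20-fold. With treatment as a term in the same edgeR quasi-likelihood fit, 6 of the 10 were higher in the deep set and 1 was lower, against 18.9% of all features called higher and 15.6% called lower. Igf2 was 7.64-fold higher (log2 2.93 ± 0.35, adjusted p = 3.05e-05), Slco1a4 6.28-fold, Col1a2 5.08-fold, Col1a1 4.76-fold and Vtn 4.25-fold. Pdgfrb was higher by a log2 difference of 0.38 ± 0.13 (adjusted p = 0.0332). Rgs5 was lower in the deep set, with a log2 difference of -1.25 ± 0.28 (adjusted p = 0.00284). Kdr (0.91, adjusted p = 0.0648), Pecam1 (0.44, adjusted p = 0.0728) and Flt1 (0.57, adjusted p = 0.208) did not pass the limit of 0.05. For Vtn, Igf2 and Col1a2 every deep library lay above every shallow one, as it did for 6.03% of all features. The comparison of sets was added after the data were seen.

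**Figure D2:**
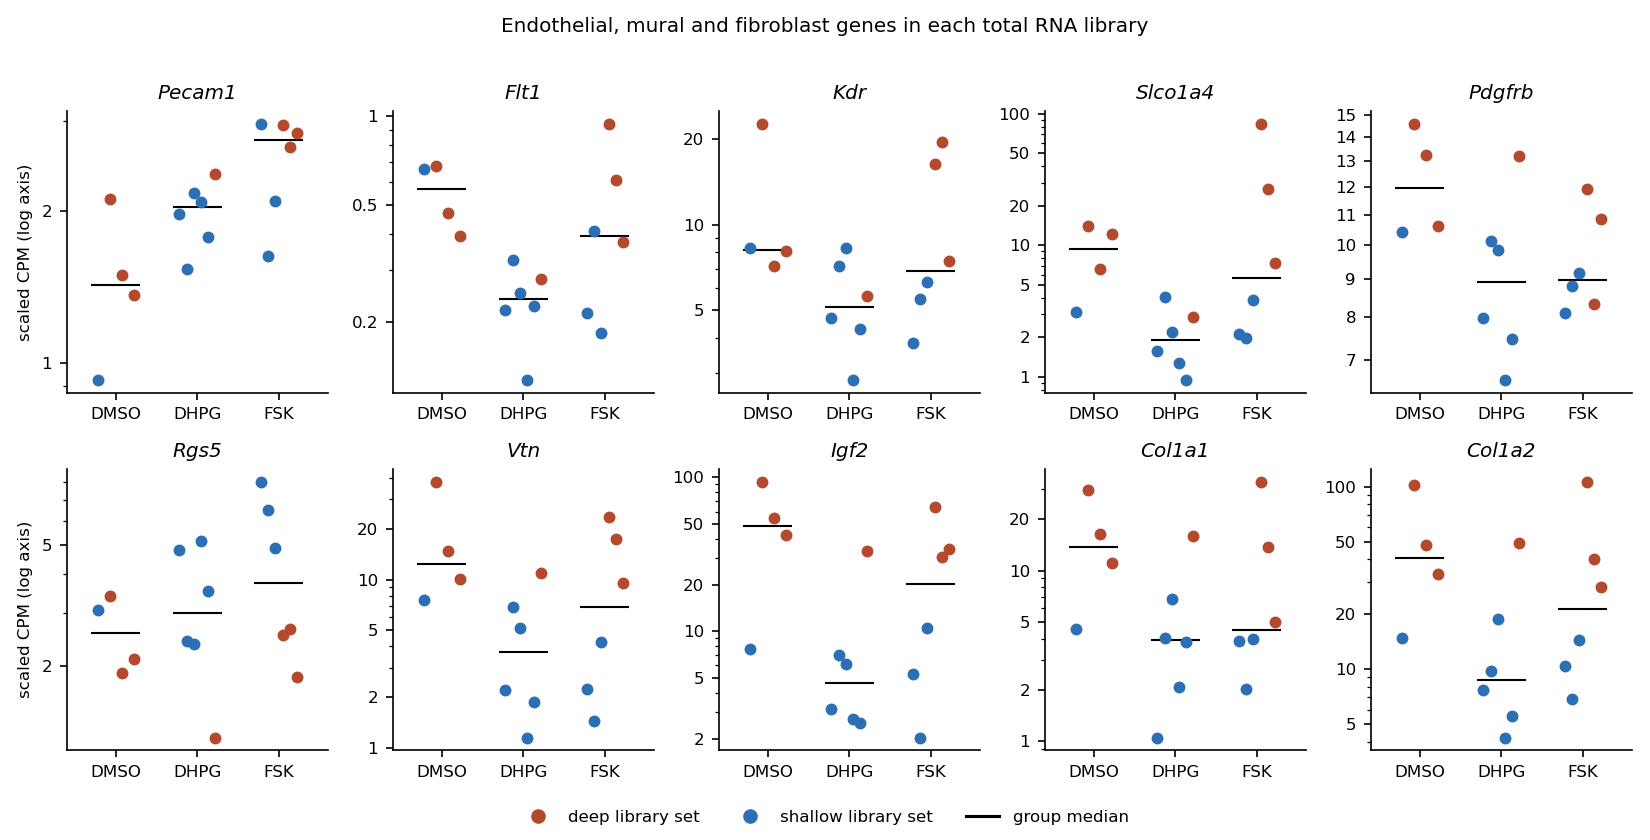
Scaled CPM of each of the 10 genes in each total RNA library (vertical axes logarithmic, a different range for each gene), by treatment, with 4 DMSO, 6 DHPG and 6 FSK libraries. Colour gives the library set and the bar the group median. The deep libraries of Vtn, Igf2 and Col1a2 all lie above the shallow ones, while the Rgs5 values of FSK 1 to 3, from the shallow set, lie above all others of the FSK group.

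The other lists of the same tissues differed in how far they shared this split. Of the 22 other fibroblast and meningeal genes 17 were higher in the deep set and none lower, with a median log2 difference of 1.70 against 0.0044 over all features. They include Ptgds, the prostaglandin D synthase of the meninges (10.9-fold), Slc6a13, a GABA and taurine transporter (9.28-fold), and Aldh1a2, a retinoic acid synthase (7.25-fold). The 11 basement membrane genes had 7 higher, among them the laminin gene Lama4 (3.78-fold) and the nidogen gene Nid1 (4.32-fold). Of the 11 other mural genes 1 was higher, Anpep, an aminopeptidase of pericytes and fibroblasts (12.4-fold). The 9 other endothelial genes had 5 higher, with Cdh5, the cadherin of endothelial junctions, 10.2-fold higher and at most 8.21 CPM, and 1 lower, Egfl7, an endothelial matrix protein gene (log2 -0.62 ± 0.13, adjusted p = 0.0017). Markers of other cells were also higher in the deep set, among them 7 of 8 choroid plexus and ependymal genes (median log2 difference 1.60) and 3 of 7 astrocyte genes (median 0.71, 1 lower). Of 8 microglial genes 1 was higher and all 8 were positive (median 1.02). Their summed level was 140 CPM in FSK 4 and 261 CPM in FSK 5. In the other deep libraries it was 4.19 to 9.08 CPM, against 8.30 to 27.0 CPM in the shallow set. The 7 excitatory neuron genes had 2 higher and 2 lower (median 0.23), and the 6 oligodendrocyte genes 1 lower (median 0.31). The part of these cells in the result was not tested.

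By the edgeR quasi-likelihood test neither treatment gave a call for any of the 10 genes against DMSO. With FSK 0 of 10 passed an adjusted p of 0.05, where 0.809% of all features did, and with DHPG 0 of 10 passed, where 0.00582% did. At an unadjusted p under 0.05 there was 1 of 10 with FSK (21.3% of all features) and 6 of 10 with DHPG (12.4%). The DESeq2 Wald test called 1 of 10 with FSK, Pecam1, where 7.43% of all features passed. The median log2 fold change of the 10 genes was -0.29 with FSK, with 3 higher and 7 lower, and -1.32 with DHPG, with 2 higher and 8 lower, beside 0.02 and -0.01 over all features. With a term for the library set these medians were -0.19 and -0.47. The FSK median was -1.22 over 9 genes without FSK 4 and FSK 5, since Flt1 then failed the filter on low counts. Both comparisons use the same 4 DMSO libraries, 3 of them deep.

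Pecam1 encodes the adhesion molecule CD31 of endothelial junctions. In DMSO 1 to 4 it stood at 0.928, 2.11, 1.49 and 1.37 CPM. DHPG libraries ran from 1.54 through a median of 2.03 to 2.36 CPM, and FSK libraries from 1.63 through 2.76 to 2.96 CPM. In the FSK group 4 of 6 libraries lay above every DMSO library, and the groups overlapped. The log2 fold change with FSK was 0.77 ± 0.24 (adjusted p = 0.105), 1.71-fold. It passed with the library set as a term (0.90, adjusted p = 0.0254), where 9.45% of all features passed. By the DESeq2 Wald test, where 7.43% passed, it did too (0.77, adjusted p = 0.0299). With the set term and without FSK 4 and FSK 5 it was 0.94 (adjusted p = 0.112). Within the deep set, 3 libraries against 3, it was 0.77 ± 0.26, and within the shallow set, 3 against DMSO 1 alone, 1.26 ± 0.41. In the authors' deposited table it is 0.77 with an adjusted p of 0.0537. With DHPG the log2 fold change was 0.42 ± 0.24 (adjusted p = 0.423). Counts behind these values ran from 20.9 to 165.7 a library, and none of the 16 was whole, so its reads may be shared with other transcripts, which was not tested.

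Flt1 and Kdr encode VEGF receptors 1 and 2. Flt1 stood at 0.663, 0.677, 0.469 and 0.394 CPM in DMSO 1 to 4, at 0.128 to 0.326 CPM with DHPG (median 0.239) and at 0.183 to 0.942 CPM with FSK (median 0.391). Every DHPG library lay below every DMSO library, which 0.67% of all features showed. Counts a library ran from 3 in the DHPG group to 53.3 in the FSK group, and the latter is outside the comparison of DHPG with DMSO. The log2 fold change with DHPG was uncertain at -1.18 ± 0.42 (adjusted p = 0.400). It was -0.87 ± 0.64 within the deep set and -1.52 ± 0.58 within the shallow set, each with a lone library on 1 side. With FSK it was -0.23 ± 0.40 (adjusted p = 0.782), and the groups overlapped.

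Kdr stood at 8.26, 22.6, 7.15 and 8.06 CPM in DMSO, so DMSO 2 was far above the other 3. DHPG libraries held 2.85 to 8.25 CPM (median 5.15) and FSK libraries 3.82 to 19.6 CPM (median 6.88), where FSK 4 and FSK 5 were the high ones. The log2 fold change was -1.07 ± 0.45 with DHPG (adjusted p = 0.400) and -0.22 ± 0.45 with FSK (adjusted p = 0.816), and without DMSO 2 these were -0.51 and 0.34.

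Slco1a4 encodes an organic anion transporter of the blood-brain barrier and was the most variable of the 10. DMSO 1 to 4 held 3.14, 14.0, 6.57 and 12.1 CPM and the DHPG libraries 0.953 to 4.05 CPM (median 1.90). FSK libraries held 1.96 to 83.8 CPM with a median of 5.62. The FSK range rests on FSK 4 at 83.8 and FSK 5 at 26.8 CPM, since the other 4 lay between 1.96 and 7.40. The log2 fold change with FSK was 1.23 ± 0.90 (adjusted p = 0.453) and turned to -1.22 without FSK 4 and FSK 5. With DHPG it was -2.06 ± 0.89 (adjusted p = 0.400). The authors' deposited table gives -2.05 for DHPG with an adjusted p of 0.00240 and a standard error of 0.43. The DESeq2 Wald test run here on all 3 groups gave -2.06 (adjusted p = 0.317), and what sets the deposited value apart was not tested. FSK 4 and FSK 5 also stood apart in 8 microglial genes, whose summed level was 140 and 261 CPM there and 4.19 to 27.0 CPM in the other 14 libraries. Their summed choroid plexus and ependymal genes reached 466 and 406 CPM, against 39.9 to 370 CPM elsewhere. Summed astrocyte genes stood at 4961 and 5405 CPM there, against 1706 to 4115 CPM elsewhere. Summed excitatory neuron genes were lowest there, at 811 and 863 CPM, against 1003 to 1597 CPM elsewhere. The part of these cells in the Slco1a4 values was not tested.

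Pdgfrb, the PDGF-B receptor of pericytes and fibroblasts, varied least. It stood at 10.4, 14.6, 13.3 and 10.6 CPM in DMSO, at 6.59 to 13.2 CPM with DHPG (median 8.92) and at 8.12 to 11.9 CPM with FSK (median 8.99). The log2 fold changes of -0.41 ± 0.18 with DHPG (adjusted p = 0.400) and -0.36 ± 0.18 with FSK (adjusted p = 0.273) were close to each other in size, with DMSO shared between them. In the DHPG group 5 of 6 libraries lay below every DMSO library, and DHPG 6, the deep one, did not.

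Rgs5 encodes a regulator of G protein signalling found in pericytes. Its DMSO values were 3.05, 3.41, 1.91 and 2.11 CPM, DHPG libraries held 1.17 to 5.15 CPM (median 2.98) and FSK libraries 1.85 to 8.03 CPM (median 3.76). The 3 shallow FSK libraries, at 4.88 to 8.03 CPM, lay above every DMSO library and the 3 deep ones, at 1.85 to 2.65 CPM, did not. Over all libraries the log2 fold change with FSK was 0.75 ± 0.44 (adjusted p = 0.347), against -0.07 ± 0.34 within the deep set and 1.08 ± 0.51 within the shallow set. With DHPG it was 0.31 ± 0.44 and changed sign, to -0.55, with the set term.

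Vtn encodes vitronectin, an adhesive glycoprotein that brain pericytes make. Levels were 7.55, 38.1, 14.8 and 10.03 CPM in DMSO, 1.15 to 10.9 CPM with DHPG (median 3.69) and 1.44 to 23.6 CPM with FSK (median 6.90). The highest DHPG library was again DHPG 6, the deep one, and the 3 highest FSK libraries were the 3 deep ones. Log2 fold changes were -1.90 ± 0.75 with DHPG (adjusted p = 0.400) and -0.85 ± 0.74 with FSK (adjusted p = 0.535), within a spread that the sets share out. The DHPG value was -2.36 without DHPG 6 and -1.19 without DMSO 2.

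Igf2 encodes insulin-like growth factor II, a hormone of meninges, choroid plexus and fetal connective tissue. DMSO 1 to 4 held 7.64, 93.5, 54.3 and 42.0 CPM, so DMSO 1, the shallow one, lay far below the rest. DHPG libraries held 2.54 to 33.3 CPM (median 4.63) with DHPG 6 highest and the next at 6.98, and FSK libraries held 2.04 to 64.5 CPM (median 20.4). The log2 fold change with DHPG, -2.41 ± 0.89 (adjusted p = 0.400), was the lowest of the 10 genes. It ran to -3.53 without DHPG 6 and -1.90 without DMSO 2. It was -0.93 ± 0.75 within the deep set and -0.84 ± 0.71 within the shallow one. With FSK it was -1.01 ± 0.87 (adjusted p = 0.534). Of the 16 counts 14 were not whole, so overlapping transcripts of this imprinted locus may share reads with it.

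Col1a1 and Col1a2 encode the chains of type I collagen, the main fibrillar collagen of fibroblasts. Col1a2 stood at 14.8, 102, 47.6 and 33.3 CPM in DMSO, at 4.21 to 48.8 CPM with DHPG (median 8.75) and at 6.82 to 106 CPM with FSK (median 21.2). Col1a1 followed with 4.55, 29.8, 16.5 and 11.04 CPM in DMSO, 1.05 to 15.9 CPM with DHPG (median 3.93) and 2.04 to 33.0 CPM with FSK (median 4.49). In both genes the highest library of each group was a deep one: DMSO 2, DHPG 6 and FSK 4. With DHPG the log2 fold changes were -1.63 ± 0.78 for Col1a2 (adjusted p = 0.400) and -1.45 ± 0.77 for Col1a1 (adjusted p = 0.411). They were -2.43 and -2.13 without DHPG 6, and -1.002 and -0.91 without DMSO 2. Within the sets the 4 values lay between -0.69 and -0.27, and each of them was smaller than its standard error. With FSK they were -0.52 ± 0.77 and -0.58 ± 0.77, and that of Col1a2 was 0.13 without DMSO 2 and -1.30 without FSK 4.

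**Figure D3:**
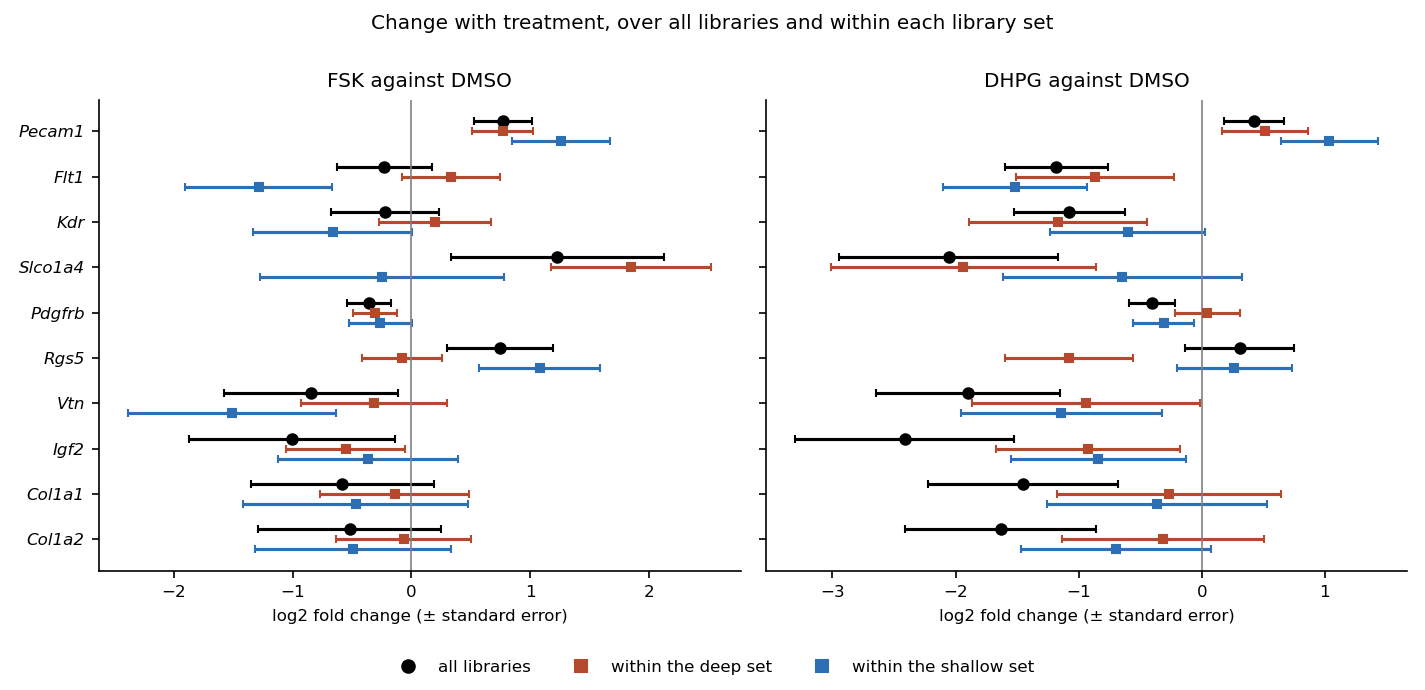
Log2 fold change of the 10 genes against DMSO with FSK (left) and DHPG (right), with standard error bars, over all libraries (circles) and within each library set (squares). Within-set fits hold 3 against 3 (deep) and 3 against 1 (shallow) libraries for FSK, and 1 against 3 and 5 against 1 for DHPG. With DHPG the values of Igf2, Col1a1 and Col1a2 lie nearer 0 within either set than over all libraries, while those of Pecam1 lie above 0 throughout.

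The further genes of these tissues gave no call against DMSO either. With DHPG all 22 other fibroblast and meningeal genes had a negative log2 fold change, with a median of -1.14, and 0 passed. The lowest p belonged to Lox, which crosslinks collagen (-1.98 ± 0.66), and Ogn, a small proteoglycan gene (-1.96 ± 0.73). With the set term the median of these 22 was -0.26. With FSK 12 were positive and 10 negative, with a median of 0.04, and Ogn was at 1.32 ± 0.74. That median was -0.90 without FSK 4 and FSK 5. Among 11 basement membrane genes 10 were negative with DHPG (median -0.57), with Lama4 at -1.45 ± 0.64 and the perlecan gene Hspg2 at -1.14 ± 0.51. The VEGF and PDGF ligands and co-receptors had a median of -0.10 with FSK. Vegfb was at -0.51 ± 0.14 (adjusted p = 0.0828) and Pdgfa at -0.25 ± 0.09 (adjusted p = 0.129). In the IGF system Igf2bp3, an RNA-binding protein of Igf2 mRNA, was at 0.77 ± 0.23 (adjusted p = 0.0996), and Igf1 at 0.85 ± 0.31 (adjusted p = 0.144). With the set term, where 9.45% of all features passed, Vegfb (adjusted p = 0.0286), Pdgfa, Pdgfb and Igfbp4 were lower. By the DESeq2 Wald test, where 7.43% passed, Vegfb was lower (adjusted p = 0.0209) and Igf2bp3 higher.

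Between the treatments, FSK against DHPG, 1 of the 10 genes was called, where 30.8% of all features were called and 16.3% higher. Slco1a4 was 9.75-fold higher with FSK (log2 3.29 ± 0.86, adjusted p = 0.0181), with 3 of 6 FSK libraries above every DHPG library. The call was lost without FSK 4 and FSK 5, as were most others: only 0.0179% of all features then passed. The Slco1a4 log2 difference was then 0.84 (adjusted p = 0.262). Without FSK 4 alone, where 15.1% passed, it was 1.97 (adjusted p = 0.0508). With the set term, where 23.3% passed, it was 1.46 (adjusted p = 0.142). It was 3.79 ± 1.20 within the deep set and 0.40 ± 0.67 within the shallow set. All 10 genes were higher with FSK, with a median log2 difference of 0.91 against 0.03 over all features, and Flt1 came next at 0.95 ± 0.38 (adjusted p = 0.0667). Without FSK 4 and FSK 5 the median of the 9 genes still tested was 0.080, and Vtn, Col1a1 and Col1a2 turned to -0.10, -0.60 and -0.086.

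Other fibroblast and meningeal genes had 6 of 22 higher with FSK than with DHPG. These were Ogn (3.28 ± 0.71), Cyp1b1, a cytochrome of mesenchymal cells (2.51 ± 0.68), Lox (2.15 ± 0.62), Foxc1, a transcription factor of meningeal development (1.69 ± 0.55), Col5a2 (1.46 ± 0.51) and Mgp (2.50 ± 0.91), with edgeR adjusted p between 0.0164 and 0.0479. Without FSK 4 and FSK 5 0 of the 22 passed, and 3 features of all passed. The remaining 5 lists had 5 of 55 tested genes higher, 9.09% against 16.3% of all features, and 6 lower, 10.9% against 14.4%, so both shares lay under the background. Pdgfd (1.96 ± 0.55), Nid2 (1.60 ± 0.59), Igfbp5 (1.75 ± 0.52), Igf1 (1.22 ± 0.28) and Ocln (0.60 ± 0.21) were higher. Pdgfb (-0.72 ± 0.18), Vegfb (-0.47 ± 0.13), Igfbp4 (-0.89 ± 0.19), Egfl7 (-0.58 ± 0.21), Lamb1 (-0.30 ± 0.09) and Igf2r (-0.19 ± 0.07) were lower. Each of these 11 also lost its call without FSK 4 and FSK 5. With the set term alone, where 23.3% of all features passed, Ogn, Cyp1b1, Lox, Igf1 and Igfbp5 were higher and Pdgfb, Vegfb, Igfbp4, Egfl7 and Lamb1 lower. With the set term and without FSK 4 and FSK 5, where 9.27% passed, Ogn, Lox and Igf1 were higher and Pdgfb, Igfbp4 and Igfbp2 lower.

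The miRNA libraries gave a second readout. The miRNAs shown are those whose genes lie in or beside transcripts of these tissues, with bases 2 to 8, the seed that pairs with targets, in capitals. Sequences are from RefSeq on GRCm38.p6.
miR-126a-3p: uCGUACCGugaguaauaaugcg
miR-199a-3p: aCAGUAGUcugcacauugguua
miR-199a-5p: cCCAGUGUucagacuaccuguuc
miR-214-3p: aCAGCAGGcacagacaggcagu
miR-483-3p: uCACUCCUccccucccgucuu
miR-483-5p: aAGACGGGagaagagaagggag
These 6 carry 6 different seeds. The miR-126a gene lies inside Egfl7 (arm at chr2:26591402-26591423), 1 copy of miR-199a (chr1:162217883-162217904) and miR-214 (chr1:162223438-162223459) lie inside the noncoding gene Dnm3os, and miR-483 lies inside Igf2 (chr7:142654932-142654952 for the 3p arm). The 3p arm of miR-199a has the same sequence as miR-199b-3p, so the values cannot separate them. Of 14 mature arms looked for, those of miR-143 and miR-145a of smooth muscle and fibroblasts included, 7 passed the filter.

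Most of these arms were higher in the libraries of deep-set names, as Col1a1 and Col1a2 were, here in libraries prepared for another RNA class. Col1a1 itself overlapped between the sets, from 5.02 CPM in the deep one and up to 6.79 CPM in the shallow one. Against 31.7% of the 556 miRNAs that differed and 19.6% that were higher, 5 of these 7 arms were higher in the libraries of deep-set names. miR-143-3p ran from 755 to 3757 CPM there and from 226 to 446 CPM in the others, a 4.30-fold difference (adjusted p = 0.0015). miR-199a-3p ran from 122 to 417 CPM against 23.0 to 57.0 CPM, 4.33-fold (adjusted p = 0.00015), and miR-199a-5p (4.08-fold), miR-214-3p (4.35-fold) and miR-145a-5p (3.54-fold) were higher too. Of these 5 arms 4, all but miR-145a-5p, had every deep library above every shallow one, as did 4.86% of all miRNAs. Without FSK 4 and FSK 5, miR-214-3p and miR-145a-5p failed the filter on low counts and were not tested. The other 3 calls held, where 27% of all miRNAs were called. miR-126a-3p, an arm abundant in endothelium, did not pass, at 50.9 to 78.6 CPM in the deep set and 68.6 to 99.4 CPM in the shallow one (log2 -0.26 ± 0.13, adjusted p = 0.127). Neither did its 5p arm (-0.22 ± 0.18, adjusted p = 0.373). miR-483-3p, inside Igf2, had at most 41 counts, in DMSO 2, and 25 in FSK 4, against 9 or fewer in each shallow library, and was not tested.

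Against DMSO none of the 7 arms passed, where 0% of the miRNAs passed with either treatment and 9.53% (FSK) and 11% (DHPG) had an unadjusted p under 0.05 by edgeR. With DHPG 2 of 7 did, miR-199a-3p at -1.58 ± 0.69 and miR-199a-5p at -1.45 ± 0.63 (adjusted p = 0.402 for both). With FSK the 7 log2 fold changes lay between -0.17 and 0.21. The DESeq2 Wald test called 1 of all miRNAs with FSK and none of these 7.

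Within each set, levels of Col1a2 and miR-143-3p were compared over libraries of the same label and number, as 1 of 22 relations chosen after the data were seen. The labels do not say that these share an RNA sample. Each set mixes treatments, and the permutations ignored treatment. In the deep set Pearson's r was 0.93 (n = 7, exact permutation p = 0.00278, adjusted p = 0.0204) and Spearman's rho 0.86 (exact permutation p = 0.0238, adjusted p = 0.0582), and r was 0.72 without the 2 libraries farthest from the median of Col1a2. In the shallow set r was 0.92 (n = 9, exact permutation p = 0.00073, adjusted p = 0.00803), rho 0.93 (exact permutation p = 0.00075, adjusted p = 0.0165) and r without the 2 farthest 0.92. For Col1a2 and miR-199a-3p r was 0.91 in the deep set (n = 7, exact permutation p = 0.0169, adjusted p = 0.0371; rho 0.68, exact permutation p = 0.11) and 0.17 without the 2 farthest, so the relation there rests on those libraries. In the shallow set r was 0.76 (n = 9, exact permutation p = 0.0154, adjusted p = 0.0371) and 0.69 without the 2 farthest. Spearman's rho there was 0.77 (exact permutation p = 0.0214, adjusted p = 0.0582). Pecam1 and miR-126a-3p gave r of -0.16 in the deep set (n = 7, exact permutation p = 0.722; rho -0.21, exact permutation p = 0.662) and 0.04 in the shallow set (n = 9, exact permutation p = 0.887; rho -0.18, exact permutation p = 0.644).

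**Figure D4:**
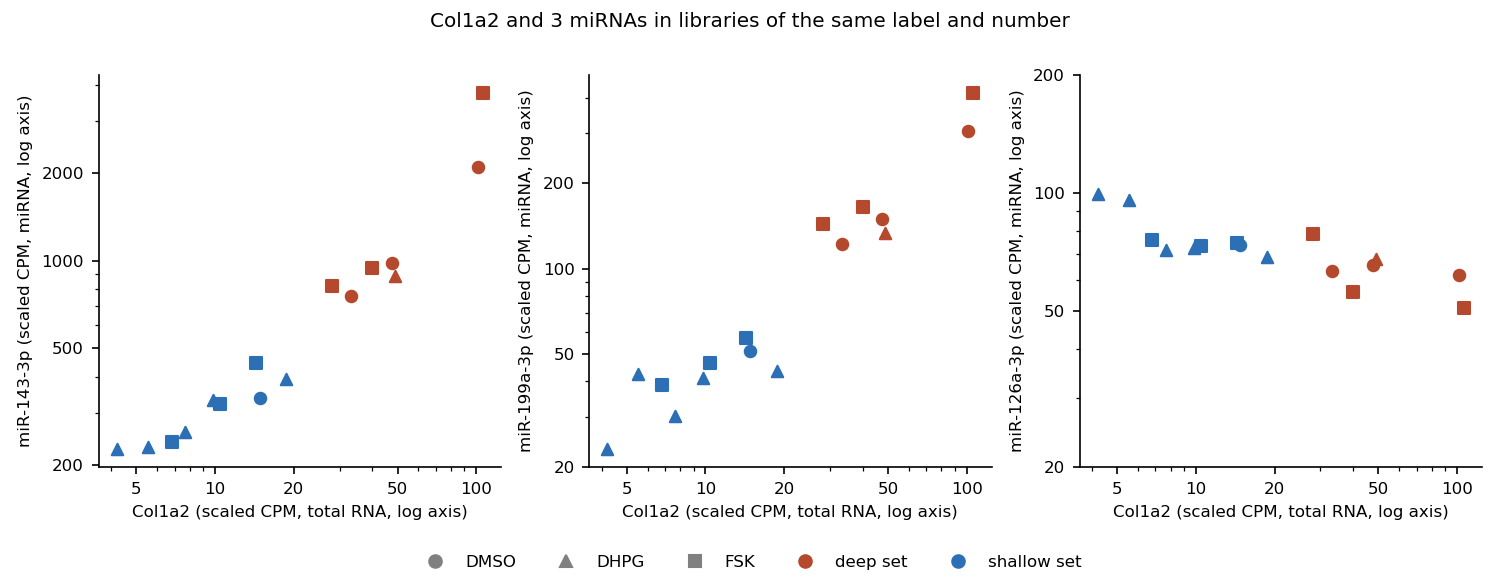
Scaled CPM of 3 miRNAs (vertical axes) against Col1a2 in the total RNA library of the same label and number (horizontal axes), all logarithmic, with 16 points a panel, shape by treatment and colour by library set. miR-143-3p and miR-199a-3p lie higher in the deep set, and miR-126a-3p stays between 50.9 and 99.4 CPM.

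Features with the most similar profile were found by Pearson's r of log2 CPM over all 16 libraries, as a description over points that share libraries and sets. Col1a2 ran closest to Lama4 (r = 0.99), Apod (0.97) and Tbx18 (0.97). Igf2 also ran closest to Lama4 (0.97), Col1a1 to Svep1 (0.96), and Vtn to the gelatinase gene Mmp2 (0.98). Pecam1 ran closest to Nr4a1 (0.87), Gm17024 (0.85) and Fos (0.85), of which Nr4a1 and Fos are immediate-early genes, with r of 0.94 in both cases in the deep set and 0.81 and 0.78 in the shallow set. Flt1 ran closest to Prokr1 (0.90), Kdr to Igfbpl1 (0.96), Slco1a4 to Ttc30a1 (0.97), Pdgfrb to Tprgl (0.91) and Rgs5 to Hnrnpm (0.90).

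Forskolin raises cAMP, and promoters were searched for the full cAMP response element TGACGTCA, which is its own reverse complement and holds the shorter TGACG. RefSeq promoters of 7 of the 10 genes were at hand, 10 start sites in all, and the 250 bases before each were read. Flt1 alone held the full element, which 1.55% of the 32851 promoters held. It is shown in capitals in the Flt1 sequence, on the minus strand of GRCm38.p6, chr5:147726012-147726261.
Flt1: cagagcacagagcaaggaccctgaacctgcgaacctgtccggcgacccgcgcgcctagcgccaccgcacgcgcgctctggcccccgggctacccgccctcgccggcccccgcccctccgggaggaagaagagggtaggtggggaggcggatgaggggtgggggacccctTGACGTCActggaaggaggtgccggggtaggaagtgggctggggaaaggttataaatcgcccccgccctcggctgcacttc
The match is a description of letters, and the Flt1 log2 fold change with FSK was -0.23 ± 0.40. TGACG, on either strand, was at 2 of the 10 start sites, of Flt1 and Igf2, and in 17.8% of all promoters. CCAAT was at 4 of 10 start sites (33.8% of all promoters) and TATAAA at 2 of 10 (12.4% of all promoters). In RefSeq on that build the genes lie at chr11:106654213-106715281 (Pecam1), chr5:147561604-147726438 (Flt1), chr5:75932827-75979072 (Kdr), chr6:141805438-141856284 (Slco1a4), chr1:169655501-169695813 (Rgs5), chr11:78499120-78502325 (Vtn), chr7:142650768-142666816 (Igf2), chr11:94936224-94953042 (Col1a1) and chr6:4505618-4541543 (Col1a2).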

How the data were processed

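Per the labels' protocols, RNA was extracted with Trizol and chloroform and total RNA libraries were made with a stranded kit. Per the submitters' processing notes the tools were Salmon and DESeq and the build GRCm38, with no version given. The deposited tables hold estimated counts, of which 26.6% (total RNA) and 3.68% (miRNA) are not whole numbers within 1e-09. Control columns were taken as the DMSO samples of the same number. The authors' deposited tables of log2 fold changes and p-values were quoted only where named.

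Estimated counts were rounded and tested with the edgeR 4.0.16 quasi-likelihood test (R 4.3.3, TMM scaling, robust, filterByExpr with a minimum count of 10), with all 3 groups of an assay in 1 fit and Benjamini-Hochberg adjustment over all features tested, 17173 for total RNA and 556 for miRNA, at a limit of 0.05. CPM are scaled by TMM factors, with a prior count of 2 on the log2 scale. Every adjusted p comes from this fit unless another test is named. The scripts were tested on simulated data. Alternatives were DESeq2 size factors, the DESeq2 1.42.0 Wald test, no filter, a replicate block, a library-set term, leaving out FSK 4 and FSK 5, and leaving out each library in turn. The test of library sets, the fits within sets, the set term together with leaving out FSK 4 and FSK 5, and the correlations within sets were added after the data were seen. The gene members and all lists were chosen with earlier results of these data known. Named genes were the 10 members, the 2 of smallest p with each treatment in each further list, any list member that passed, and the features closest in profile to each member, with every tested arm of the 7 miRNAs. Genes named for their difference between library sets, and Cldn5, Sox17, Sox18, Erg, Tek and the other genes named for their counts, were chosen after their values were seen.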

Additional observations from a re-analysis of the deposited data

Results flagged for a closer look

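A library lay far from the others of its treatment group in 12 of 51 groups of 4 or 6 libraries. The rule takes the gap to its nearest neighbour over the range of the group, on CPM without logarithms. Its chance rate of about 5% assumes normally spread values, so it is no reference for these CPM. The values are not independent, since they fall in few libraries and related genes. In DMSO 2 Kdr stood at 22.6 CPM, with the next library at 8.26. In DHPG 6, the deep library of its group, Igf2 stood at 33.3 CPM, Col1a2 at 48.8, miR-143-3p at 886, miR-199a-3p at 133 and miR-214-3p at 2.79. In FSK 4 Slco1a4 stood at 83.8 CPM, Col1a2 at 106, miR-143-3p at 3757, miR-145a-5p at 9.31, miR-199a-3p at 417 and miR-214-3p at 9.62. All 12 were the highest of their group.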

How the results depend on the processing

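Counts of features called moved with most settings. FSK against DMSO gave 139 features, and 1276 by the DESeq2 Wald test, 66 without the filter, 1622 with the library-set term, 38 without FSK 4 and FSK 5, 56 with both of these, and 12 to 427 when each library was left out in turn. DHPG against DMSO gave 1 feature, 7 by DESeq2, 0 with the set term, 0 without FSK 4 and FSK 5, 0 with both, and 0 to 5 when each library was left out. FSK against DHPG gave 5283, and 2905 without the filter, 3 without FSK 4 and FSK 5, 1551 with the set term as well, and 1804 to 5798 when each library was left out. Of the 10 genes, FSK against DMSO called 1 by DESeq2 (7.43% of all features) and 1 with the set term (9.45% of all features). FSK against DHPG called 0 with the set term (23.3% of all features) and 0 without FSK 4 and FSK 5 (0.0179%). With both it called 0 (9.27%), and 0 to 3 when each library was left out (10.6 to 33.9%). The 3 came without DHPG 6 (Col1a2, Igf2 and Slco1a4), where 32.1% of all features passed. FSK against DMSO called 1 miRNA by DESeq2 and 0 to 5 when each library was left out, and DHPG against DMSO 0 to 1. Between sets 3 miRNA arms differed without FSK 4 and FSK 5, where 27% of all miRNAs did. When each library was left out 3 to 6 arms differed, where 21.6 to 36.7% of all miRNAs did. Wherever 3 differed only 5 arms were tested, since miR-145a-5p and miR-214-3p failed the filter, and miR-145a-5p also failed it without DMSO 3. Of the 10 genes 6 to 8 differed between sets when each library was left out, where 23.4 to 41.4% of all features did.

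With the set term Rgs5 with DHPG was -0.55, and FSK against DHPG Pdgfrb was -0.064 and Col1a1 -0.011. The miRNA arms with FSK were -0.026 (miR-126a-3p), 0.26 (miR-145a-5p) and 0.18 (miR-199a-3p), and with DHPG 0.0019 (miR-145a-5p) and 0.17 (miR-214-3p). Without FSK 4 and FSK 5, FSK against DMSO gave Slco1a4 -1.22, Cnn1 -0.14, Ogn -0.67, miR-143-3p -1.19 and miR-199a-5p -1.16, and FSK against DHPG gave Vtn -0.10, Col1a1 -0.60 and Col1a2 -0.086. With both, FSK against DMSO gave Slco1a4 -0.61, Vwf -0.041, Mcam -0.084, Cnn1 -0.40, Ogn -0.10, miR-143-3p -0.31 and miR-199a-5p -0.29, DHPG against DMSO gave Rgs5 -0.57, and FSK against DHPG gave Pdgfrb -0.019, Vtn -0.31, Col1a1 -0.45 and Col1a2 -0.021. The cause was not tested.

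Leaving out each library in turn changed the sign with FSK for Kdr (-0.54 to 0.34), Slco1a4 (-0.083 to 1.55), Col1a2 (-1.30 to 0.13), miR-126a-3p (-0.014 to 0.14), miR-143-3p (-0.87 to 0.67), miR-145a-5p (-0.49 to 0.0496), miR-199a-3p (-0.76 to 0.45), miR-199a-5p (-0.49 to 0.41) and miR-214-3p (-0.062 to 0.41), and for Pdgfrb between treatments (-0.031 to 0.18).

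Same-numbered libraries of different groups mostly did not deviate together: 3 of 14 pairs had a correlation over 0.1 in each assay, from -0.41 to 0.39 for total RNA. These deviations also hold the difference between library sets, so the check cannot decide whether the numbers pair the libraries. The labels do not state a pairing. With the replicate block FSK against DMSO gave 531 features and DHPG against DMSO 0. Slco1a4 between treatments was then 2.20 (adjusted p = 0.0901), which leaves 0 of the 10 genes called, where 24.3% of all features were. With the block, FSK against DMSO gave miR-143-3p -0.38, miR-199a-5p -0.37 and miR-214-3p -0.19. Flt1, at 3 to 53.3 counts a library, is the member most limited by depth. Without FSK 4 and FSK 5, Flt1 failed the filter and has no value.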

Other observations

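The growth factor lists were set beside all features, of which 18.9% were higher in the deep set and 15.6% lower by the edgeR test. Of 10 VEGF and PDGF ligands and co-receptors 2 were higher, Pdgfd (2.88-fold, adjusted p = 0.00823) and Pdgfc (1.56-fold, adjusted p = 0.0129). Lower were 3, Vegfa (log2 -0.94 ± 0.26, adjusted p = 0.0131), Pdgfb (-0.47 ± 0.13, adjusted p = 0.00969) and the co-receptor gene Nrp1 (-0.35 ± 0.12, adjusted p = 0.0389). Vegfb, Vegfc, Pgf, Pdgfa and Nrp2 did not pass. In the IGF list 4 of 14 were higher, Igfbp5 (3.19-fold), Igfbp6 (4.33-fold), Igf2bp2 (2.13-fold) and Igf1r (1.25-fold), and Igfbp4 was lower (log2 -0.47 ± 0.14, adjusted p = 0.0173). The binding protein genes Igfbp2 (-0.11), Igfbp3 (0.46) and Igfbp7 (1.57) did not pass, nor did H19, the noncoding neighbour of Igf2 (1.14 ± 0.63, adjusted p = 0.171). The H19 arm miR-675-5p had 0 counts in all 16 libraries.

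Pecam1 and Flt1, both named as endothelial genes, ran in opposite directions within the shallow set. Pearson's r was -0.81 (n = 9, exact permutation p = 0.012, adjusted p = 0.0331 over 22 relations; Spearman's rho -0.72, exact permutation p = 0.0369, adjusted p = 0.0624), and -0.75 without the 2 libraries farthest from the median of Pecam1. In the deep set r was 0.32 (n = 7, exact permutation p = 0.473; rho 0.25, exact permutation p = 0.595). Whether the 2 sets differ in this was not tested. Flt1 fell to 3 counts in a shallow DHPG library and 5 in a shallow FSK library. The shallow set mixes treatments, with DMSO 1 its only vehicle library, and the permutations ignored treatment. In that set Pecam1 and Kdr gave r of -0.54 (exact permutation p = 0.13). Kdr and Flt1 gave 0.68 (exact permutation p = 0.0396, adjusted p = 0.0599).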
